A study of Mus musculus with 36 samples.

Results

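A set of 9 genes, fetal liver genes and their repressors, was followed in H3K9me3 chromatin of mouse liver. They were Afp, Alb, Zhx2, Zbtb20, Lin28b, Igf2bp1, Igf2bp2, Igf2bp3 and Hmga2. The members are the rows of 6 deposited tables whose gene symbol is one of these 9 names, which gave 373 of 786789 rows. A row is a bin of about 500 bp at most, and short peaks or peak ends give shorter bins, such as 148 bp in Igf2bp2. Each table holds 1 bin for each H3K9me3 peak, with the gene nearest to it. Of the 9 genes, 7 had rows, and each of these 7 had rows in all 6 tables. Afp and Alb had 0 rows in the tables used here.

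The livers came from offspring of dams that received a Western-style diet (maternal obesity, MO) or a control chow from before pregnancy until the end of lactation. All offspring, of MO and of control dams, were Reg3g fl/+ or Reg3g fl/fl mice from a floxed colony on a C57BL/6J background, and no Cre driver is named for them. The genotype of single animals is not given in the sources used here. Offspring were taken at 3 weeks, before weaning, or at 8 weeks, after regular chow, as control females (CF), control males (CM), MO females (MF) and MO males (MM). Each of these 8 groups has 4 ChIP libraries, and 4 input libraries of control animals bring the total to 36. Each table pools 8 ChIP libraries. The female and the male age table hold control offspring of both ages, and the 3-week and 8-week tables of each sex hold MO and control offspring of that age.

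The level of a bin is the authors' average log2 CPM, a read count scaled to library size, over the 8 libraries of its table. It is an average over both groups of the table, so it carries no spread and gives no contrast between MO and control or between ages within a table. For this reason all values below are descriptions without a test. The 6 tables were normalized separately, and their median levels ran from 2.03 in the male 3-week table to 2.74 in the male 8-week table, so a level is also given as its percentile among all bins of the same table. The retained bin of a peak can differ between tables: among member peaks longer than 1 bin that occurred in several tables, it did in 19 of 41 female and 17 of 49 male peaks. Neither level nor percentile is scaled to bin length, so bins of unlike length are not directly comparable. In bulk liver, fewer cells that carry the mark and less mark per cell cannot be told apart.

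H3K9me3 is the histone mark of constitutive heterochromatin, where HP1 proteins bind it and transcription is low. Afp and Alb are neighbours in the albumin gene family and encode the main serum proteins of the fetal and the adult liver. Afp is shut down after birth, and the zinc finger and homeobox protein Zhx2 and the zinc finger protein Zbtb20 are known repressors of it. Lin28b blocks maturation of let-7 microRNAs in fetal tissue. The let-7 targets Igf2bp1, Igf2bp2 and Igf2bp3 bind mRNA, and Hmga2, another let-7 target, is a chromatin protein of the minor groove of DNA. These RNA-binding and chromatin proteins are high in fetal liver and, apart from Igf2bp2, low in the adult.

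The promoter sequences show how unlike these genes are at their starts. The windows run from 250 bases before to 50 bases after the gene start (RefSeq, GRCm38.p6, the assembly whose coordinates the files use as mm10), and capitals mark CpG dinucleotides. The RefSeq promoter table held 7 of the 9 genes, without Zhx2 and Igf2bp1, and 4 of the 7 with the window of the gene start used here. Alb and Afp, which had no peak, are at chr5:90460620-90460919 and chr5:90490464-90490763 on the plus strand. Hmga2 and Igf2bp2, whose windows lay in a peak in both sexes, are at chr10:120476420-120476719 and chr16:22163250-22163549 on the minus strand. For Lin28b the same 300 bases around the gene start were read from the genome within its peak, at chr10:45486265-45486564 on the minus strand.
Alb: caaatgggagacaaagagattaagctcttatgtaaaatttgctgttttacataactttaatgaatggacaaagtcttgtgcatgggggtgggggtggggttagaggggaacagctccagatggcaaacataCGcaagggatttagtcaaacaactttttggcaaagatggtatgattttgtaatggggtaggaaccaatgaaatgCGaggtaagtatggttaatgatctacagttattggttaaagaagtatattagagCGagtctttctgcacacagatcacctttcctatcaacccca
Afp: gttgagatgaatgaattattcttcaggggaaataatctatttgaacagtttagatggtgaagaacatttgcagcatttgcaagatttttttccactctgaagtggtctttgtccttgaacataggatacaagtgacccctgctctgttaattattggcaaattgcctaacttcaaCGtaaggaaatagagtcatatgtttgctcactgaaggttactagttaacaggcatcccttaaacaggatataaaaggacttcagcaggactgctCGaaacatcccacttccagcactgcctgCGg
Hmga2: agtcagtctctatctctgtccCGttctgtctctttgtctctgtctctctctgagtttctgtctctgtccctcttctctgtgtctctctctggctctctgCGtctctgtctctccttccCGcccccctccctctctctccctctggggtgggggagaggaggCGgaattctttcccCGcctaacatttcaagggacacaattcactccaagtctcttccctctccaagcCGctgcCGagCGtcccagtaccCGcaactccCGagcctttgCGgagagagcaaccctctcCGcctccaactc
Igf2bp2: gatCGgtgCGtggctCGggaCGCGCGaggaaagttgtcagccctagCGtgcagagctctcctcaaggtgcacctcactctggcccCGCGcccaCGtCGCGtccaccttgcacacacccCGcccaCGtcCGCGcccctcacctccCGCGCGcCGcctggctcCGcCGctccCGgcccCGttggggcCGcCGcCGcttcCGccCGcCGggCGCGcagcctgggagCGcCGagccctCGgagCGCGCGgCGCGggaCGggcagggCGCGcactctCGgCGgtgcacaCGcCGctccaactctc
Lin28b: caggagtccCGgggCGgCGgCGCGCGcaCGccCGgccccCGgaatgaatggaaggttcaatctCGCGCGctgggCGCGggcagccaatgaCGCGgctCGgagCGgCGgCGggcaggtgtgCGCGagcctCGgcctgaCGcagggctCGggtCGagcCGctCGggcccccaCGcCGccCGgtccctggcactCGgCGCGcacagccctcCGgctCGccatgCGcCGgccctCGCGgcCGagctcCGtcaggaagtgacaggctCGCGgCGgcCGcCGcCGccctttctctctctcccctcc

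Alb and Afp held 3 CpG each, Hmga2 12, Igf2bp2 47 and Lin28b 48. Of 32851 RefSeq promoter windows of the same length, 31.4% held as few CpG as Alb and Afp or fewer, and 1.44% held as many as Igf2bp2 or more.

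The serum protein genes are described first. Neither Alb nor Afp was overlapped by a peak in either sex, and no peak lay anywhere from the start of Alb to the end of Afm, the next gene of the family. Alb spans chr5:90460870-90476602 and Afp chr5:90490714-90508907. The stretch without a peak measured 208.0 kb in females, from 90372895 to 90580873, and 207.9 kb in males, from 90372906 to 90580789. On the autosomes, 452 of 148745 spaces between neighbouring female peaks (0.304%) and 383 of 168685 male spaces (0.227%) were at least as long. The median space was 4.99 kb in females and 4.16 kb in males.

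From the start of Alb the nearest female peak was 88.0 kb upstream, assigned to Gm9958, with a level of 2.54, 2.74 and 3.00 in the female age, 3-week and 8-week tables. The male peak at the same place, also 88.0 kb away, had a level of 2.11 in the age table and 1.64 in the 3-week table. The male 8-week table listed its nearest peak 94.0 kb upstream, at 3.06. From the start of Afp the nearest peak was downstream, 90.2 kb away in females and 90.1 kb in males, in Albfm1. Its level was 2.57 and 2.53 in the female age and 3-week tables and 2.34 and 2.44 in the male ones. At 8 weeks the nearest peak to Afp was 99.1 kb away in females and 107 kb in males. Of 20554 autosomal protein-coding genes, 1.77% in females and 1.69% in males had a start at least as far from a peak as Alb. Within 500 kb of the start of Alb the tables still listed 33 female and 36 male peaks.

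**Figure D1:**
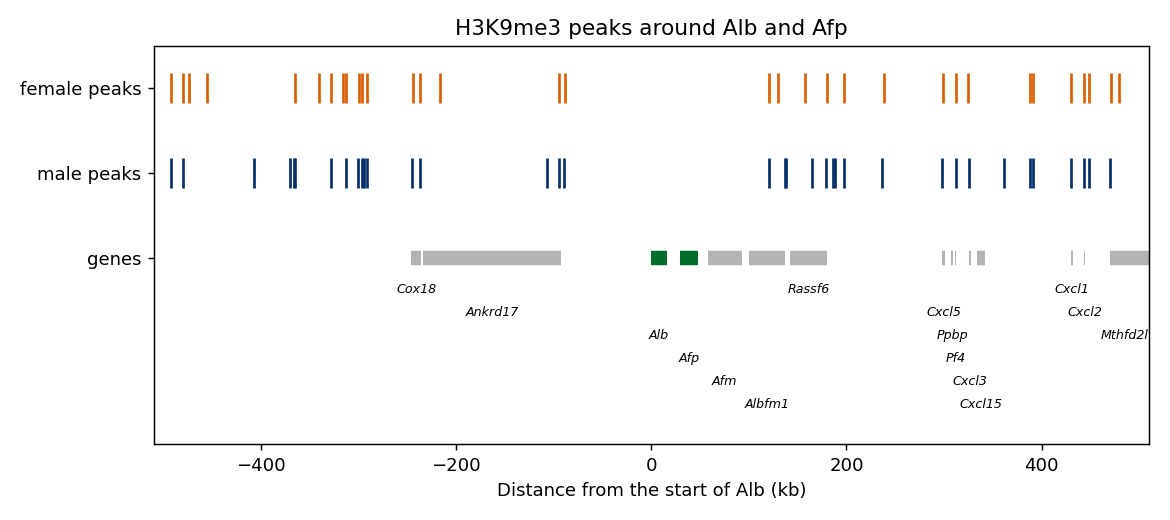
H3K9me3 peaks of the female and male tables (ticks at their midpoints) and protein-coding genes (bars, with Alb and Afp in green), by distance from the start of Alb in kb. Neither row of ticks has one over Alb, Afp or Afm, and the space between the flanking peaks is 208.0 kb in females and 207.9 kb in males.

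A gene without any row was not rare: 17.5% of 21770 protein-coding genes had none in the 6 tables, and 68.4% had a row in every table. A peak overlapped the body of 79.1% of protein-coding genes in the female tables and 78.1% in the male tables, and the promoter window of 49.4% and 50.8%. Against these shares, 7 of the 9 genes had a peak in the body in each sex and 6 of 9 had one in the promoter window: Zhx2, Lin28b, Igf2bp1, Igf2bp2, Igf2bp3 and Hmga2. The members' body count was near the share of all genes.

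The promoter peaks went with CpG content in the members as in the genome. Of the members, 5 had an observed to expected CpG ratio of at least 0.6, and all 5 promoters held a peak in both sexes: Igf2bp2 (1.09), Lin28b (1.07), Igf2bp3 (0.86), Igf2bp1 (0.76) and Zhx2 (0.61). Of the 4 below it, Hmga2 (0.54) held one, and Zbtb20 (0.55), Alb (0.27) and Afp (0.25) did not. Over all protein-coding genes, 70.0% of CpG-rich windows held a female peak and 73.8% a male peak, against 34.9% and 34.7% of CpG-poor windows. Whether base composition affected these peaks was not tested, since the tables hold no input values.

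Igf2bp2 had the most rows, 102 over the 6 tables, ahead of Hmga2 with 86, Zhx2 with 68, Igf2bp3 with 46 and Igf2bp1 with 45. Zbtb20 had 14 rows and Lin28b 12. Over all genes the tables held 786789 rows for 22325 symbols. These counts are not scaled to gene length, and a peak is counted again in each table that lists it. By peaks for each 100 kb of body, Igf2bp2 stood at percentiles 54.3 in females and 57.7 in males of all protein-coding genes. Hmga2 stood at 51.7 and 47.7. The female tables held 168 rows on 69 peaks, and 205 rows on 83 peaks were in the male tables. In each sex the 8-week table listed fewer member rows than the 3-week table: 50 against 60 in females and 50 against 81 in males. The whole tables moved the same way, from 140214 to 116257 rows in females and from 159357 to 102145 in males.

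**Figure D2:**
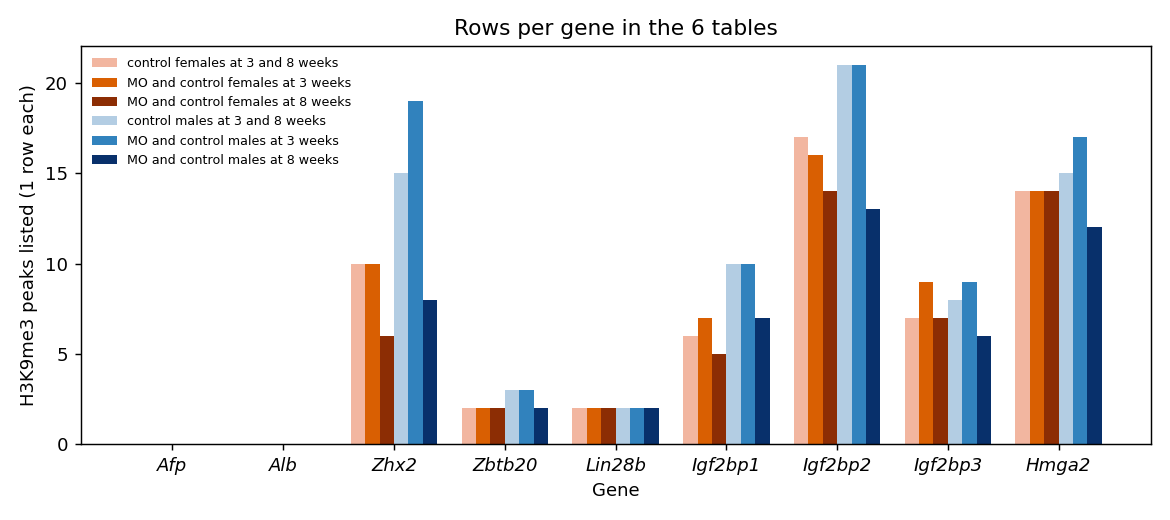
Number of H3K9me3 peaks (rows) assigned to each gene in each of the 6 tables, as bars by gene and table. Afp and Alb have 0, Lin28b has 2 in every table, and Igf2bp2 reaches 21 in the male age and 3-week tables.

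By annotation, 142 of the 373 rows were intergenic (38.1%, against 39.0% of all rows), 108 intronic, 90 at promoters (24.1%, against 20.7%), 27 exonic and 6 in untranslated regions. As a group the member bins were not set apart by their level. Their median lay 0.03 below the table median on the log2 scale in the female tables and 0.00 from it in the male tables. By gene, the median percentile of the rows was 93.7 for Zbtb20 and 83.3 for Lin28b. It was 58.2 for Hmga2, 52.4 for Igf2bp3, 46.3 for Igf2bp1, 43.1 for Igf2bp2 and 39.4 for Zhx2. The first pair rests on few peaks, listed again in tables that share libraries: 2 female and 3 male for Zbtb20, and 2 in each sex for Lin28b. In each sex a Zbtb20 peak lay on a processed pseudogene. Without a spread no genes in this order can be called different.

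**Figure D3:**
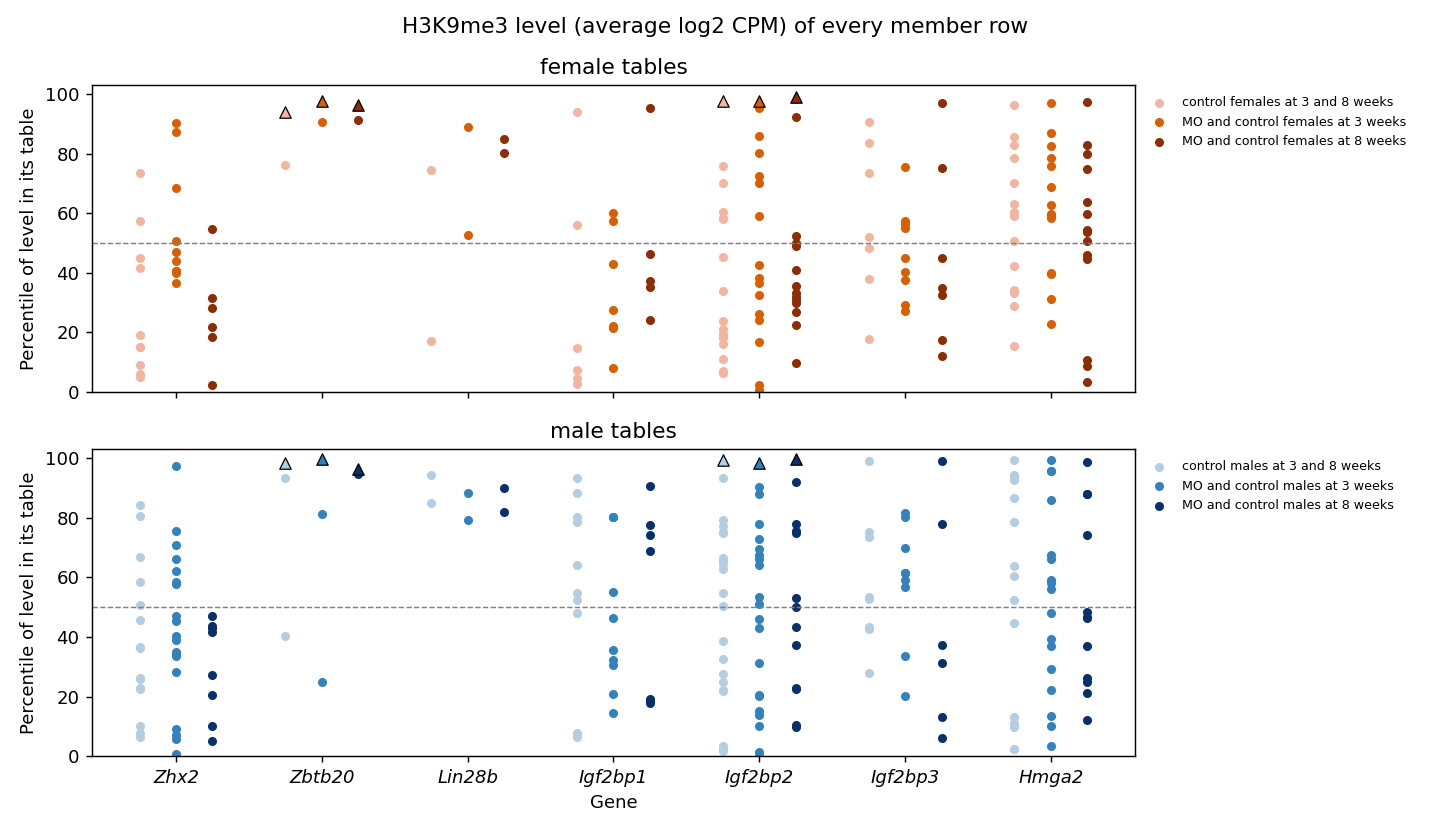
Percentile of the average log2 CPM of every member row among all rows of its table (vertical axis), by gene, with female tables above and male tables below. Triangles mark rows on a processed pseudogene, and the dashed line is the table median. Zbtb20 triangles lie at 93.9 or above and Igf2bp2 triangles at 97.6 or above, while Zhx2 rows spread from the bottom to 97.4.

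The repressors of Afp differed in their coverage. Zhx2 (chr15:57694667-57839832, plus strand) was overlapped by 21 female and 23 male peaks, or 14.5 and 15.8 for each 100 kb, and Zbtb20 (chr16:42875689-43634392, plus strand) by 6 in each sex over 758704 bp, or 0.79 for each 100 kb. Zbtb20 stood at percentile 21.2 of all protein-coding genes by this density in females and 22.3 in males, a ranking that includes genes without any peak. Zhx2 stood at 58.7 and 58.5.

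The 758704 bp of Zbtb20 held none of its peaks near a start. Its gene start was 20.6 kb from the nearest female peak and 20.5 kb from the nearest male peak, and none of its 15 RefSeq transcript starts lay in a peak in either sex. Of all protein-coding genes, 59.7% in females and 60.8% in males had at least 1 transcript start in a peak. Of all transcript starts of these genes, 54.6% in females and 56.4% in males lay in a peak. The peaks assigned to Zbtb20 lay deep in the gene body, 267 and 437 kb from the gene start in both sexes, plus 1 at 645 kb in males.

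The highest bin of Zbtb20 lay on Gm15711, a processed pseudogene, at chr16:43312569-43313063 in males and chr16:43312565-43313065 in females. Its level was 3.03, 3.07 and 3.56 in the male age, 3-week and 8-week tables and 3.22, 3.04 and 3.46 in the female ones. All 6 values were between percentiles 93.9 and 99.7. The other shared bin, at chr16:43142911-43143296 in males, reached 2.70, 2.31 and 3.46, and at chr16:43142924-43143340 in females 2.88, 2.80 and 3.20. The male bin at chr16:43521014-43521306 was lower, at 2.02 in the age table and 1.86 in the 3-week table, and the male 8-week table did not list it.

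Further peaks in the body of Zbtb20 were assigned to other genes. The 2 at the end of the gene, one over a late exon and one in the 3′ untranslated region, were listed under Mir568 in all 6 tables, with levels from 1.87 to 3.03 for the first and from 2.64 to 3.37 for the second. A peak listed under Ndufs5-ps coincided with the processed pseudogene BC002163 and ran from 2.34 to 3.07. In females one more, chr16:42928726-42928974, was listed under Gm19522 in the 3-week table alone, at 2.19 (percentile 16.5).

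The peaks of Zhx2 were numerous and mostly of ordinary level. Its promoter peak, 2817 bp long in females and 2958 bp in males, covered the start. All 3 RefSeq transcript starts lay in a peak in both sexes, against 54.6% of all starts in females and 56.4% in males. The retained promoter bins were chr15:57693148-57693648 at 2.54 (female 3-week), chr15:57694148-57694648 at 2.37 (female age) and chr15:57695648-57695964 at 2.49 (female 8-week). In males they were chr15:57693153-57693653 at 1.93 and 2.69 (3-week and 8-week) and chr15:57695653-57696110 at 2.42 (age). These sat between percentiles 9.0 and 80.6.

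By raw level over separately normalized tables, the highest Zhx2 bin was chr15:57714826-57715185, in the first intron, with 2.85, 2.74 and 2.67 in the female age, 3-week and 8-week tables, at percentiles 73.4, 87.1 and 54.6. Another bin of this intron was higher in percentile at 3 weeks in both sexes: chr15:57758714-57759205 was at 2.69 in the male 3-week table, percentile 97.4, and chr15:57758653-57759077 at 2.79 in the female one, percentile 90.1. In the age tables it was at 2.47 in males and 2.71 in females, and neither 8-week table listed it. Peaks of Zhx2 had the lowest share listed throughout: 4 of 13 female and 7 of 21 male peaks were listed in all 3 tables of their sex, against 61.3% and 56.4% of all peaks. Of its peaks, 11 of 13 in females and 11 of 21 in males overlapped a peak of the other sex, against 77.1% and 72.8% of all peaks. The part of the body toward the 3′ end held 2 to 8 rows a table that were assigned to Derl1.

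**Figure D4:**
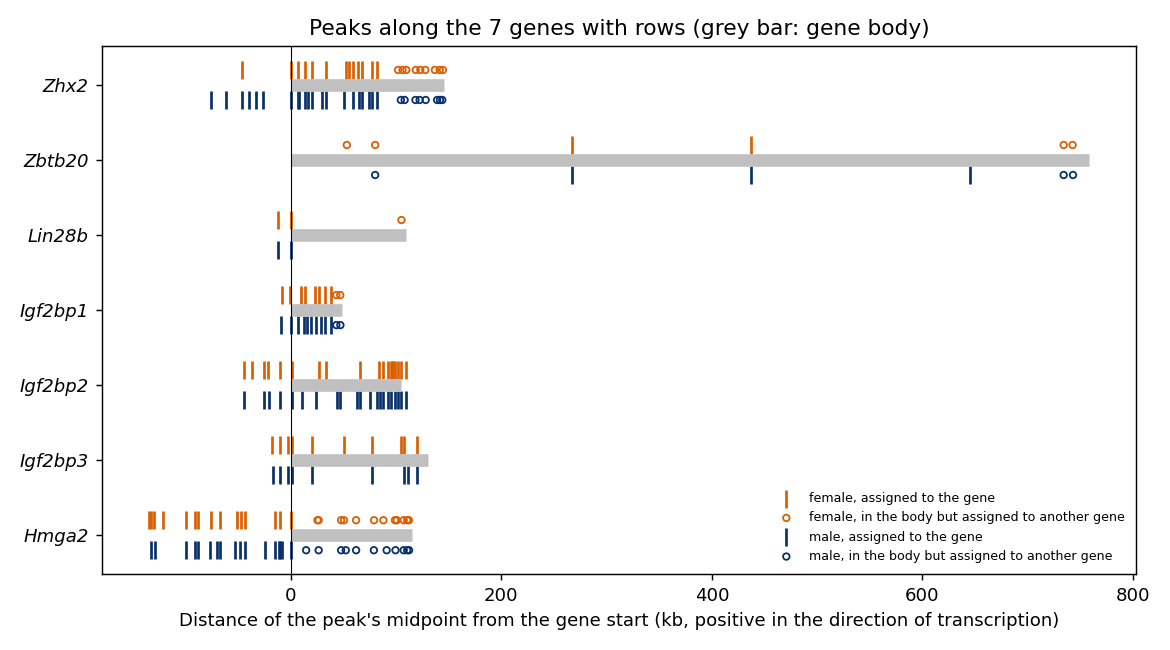
Peaks of the 7 genes with rows, by distance of the peak's midpoint from the gene start in kb, with female peaks above and male peaks below each gene. Ticks are peaks assigned to the gene, circles are peaks in its body assigned to another gene, and grey bars are gene bodies. Zbtb20 has the longest bar and the widest spaces, and all Hmga2 ticks lie at its start or upstream.

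Lin28b (chr10:45376617-45486314, minus strand) had 2 peaks in each sex, and both were in all 3 tables and overlapped the peak of the other sex. One covered the gene start, 1262 bp long in females and 1183 bp in males. Of the 8 RefSeq transcript starts, 4 lay in a peak in each sex, against 54.6% of all starts in females and 56.4% in males. The bins retained from the peak at the start were chr10:45485629-45486129 at 2.77 and 2.96 (female 3-week and 8-week) and chr10:45486629-45486890 at 2.44 (female age). In males they were chr10:45485757-45486257 at 2.73 and 2.41 (age and 3-week) and chr10:45486257-45486757 at 3.26 (8-week). The 3 male values stood between percentiles 88.1 and 94.4, and the female ones at 88.8 and 80.2. The bin at the edge of the peak in the female age table stood at 17.1. By raw level over separately normalized tables the male 8-week bin was the highest of the gene. By percentile it stood at 89.9, below the male age bin at 94.4. It alone among these bins overlapped the window shown above.

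The other Lin28b peak was 11.8 kb upstream in males and 11.9 kb in females. Its bin at chr10:45497611-45498111 had 2.48, 2.29 and 3.08 in the male age, 3-week and 8-week tables, and chr10:45497617-45498117 had 2.86, 2.43 and 3.04 in the female ones. In the female age and 8-week tables this upstream bin was above the one at the start, and in the other tables below it. The body downstream of the start was almost free of peaks. In 109698 bp it held 1 more, in females, in the last exon, which was listed under Bves at 2.35 to 2.55. The Lin28b rows were also the richest in CpG, with a median of 8.37 for each 100 bp, against 1.60 for Zhx2 and 2.79 for Zbtb20.

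Igf2bp2 (chr16:22059009-22163299, minus strand) held 13 female and 16 male peaks in its body. Its highest bin, which also had the highest single level of all members, lay past its 3′ end at chr16:22053406-22053906 on the processed pseudogene Ndufa11b. In males it was at 3.35 in the age table, 2.76 at 3 weeks and 4.26 at 8 weeks. The female bin, chr16:22053430-22053930, was at 3.43, 3.04 and 3.80. These 6 values were between percentiles 97.6 and 99.6, and in both sexes the 8-week value was the highest. The member bins on processed pseudogenes were 2 in each sex, this one and the Zbtb20 bin on Gm15711. In the whole tables the median percentile of rows on processed pseudogenes was between 62.0 and 67.1.

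Both pseudogenes are copies of mRNAs, shown here because they carry the highest levels of Igf2bp2 and Zbtb20. Over its 424 bp Ndufa11b (chr16:22053510-22053933, plus strand) was 94.8% identical to Ndufa11, which encodes a subunit of respiratory complex I, and over its 535 bp Gm15711 (chr16:43312594-43313128, plus strand) was 92.3% identical to Rangrf. The first 200 bases of each follow, with capitals at bases that differ from that transcript or are not in it, 12 in Ndufa11b and 9 in Gm15711.
Ndufa11b, chr16:22053510-22053709: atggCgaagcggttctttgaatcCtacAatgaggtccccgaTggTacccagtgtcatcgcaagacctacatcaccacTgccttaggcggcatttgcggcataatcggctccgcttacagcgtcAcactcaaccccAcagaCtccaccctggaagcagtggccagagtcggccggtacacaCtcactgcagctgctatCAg
Gm15711, chr16:43312594-43312793: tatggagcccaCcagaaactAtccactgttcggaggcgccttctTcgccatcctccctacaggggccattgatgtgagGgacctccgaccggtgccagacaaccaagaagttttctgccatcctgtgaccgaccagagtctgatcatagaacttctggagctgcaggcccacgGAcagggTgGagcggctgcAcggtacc
BC002163, in the body of Zbtb20, differed from the Ndufs5 transcript at 2 of 319 bases. How reads that fit both a copy and its parent were placed was not tested.

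The promoter peak of Igf2bp2 was 2553 bp long in females and 2642 bp in males. Its retained bins were chr16:22161348-22161848 at 2.93 and 3.24 (female 3-week and 8-week) and chr16:22161848-22162348 at 2.46 (female age). In males they were chr16:22161276-22161776 at 2.27 (3-week), chr16:22161776-22162276 at 2.98 (8-week) and chr16:22162776-22163276 at 2.21 (age). In the age, 3-week and 8-week tables these values stood at percentiles 21.2, 95.3 and 92.4 in females and 62.8, 77.9 and 74.8 in males. Of these bins, only the male age bin overlapped the promoter window shown above, and the others lay inside the gene.

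The other Igf2bp2 bins that the authors' annotation calls promoter lie inside the gene, within 3 kb of the start of a further transcript. In females, chr16:22061495-22061995 was at 2.71, 1.95 and 2.49 in the age, 3-week and 8-week tables and chr16:22076038-22076334 at 2.81, 2.55 and 2.49. The female 3-week table also listed chr16:22063310-22063810 at 2.32 and chr16:22065875-22066163 at 2.20, and the 8-week table chr16:22064810-22065310 at 2.46. The female age table listed chr16:22079059-22079559 at 2.45 and chr16:22136474-22136797 at 2.39. The highest of these 7 female bins stood at percentile 70.0.

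In males, chr16:22075962-22076335 was at 2.23, 2.22 and 2.54 in the age, 3-week and 8-week tables and chr16:22081537-22081960 at 2.37, 2.19 and 2.76. The bin chr16:22063529-22064029 was at 2.40 in the age table and 2.99 at 8 weeks, and chr16:22060504-22061004 at 3.02 at 8 weeks. Listed in the age and 3-week tables were chr16:22061004-22061504 at 2.14 in both, chr16:22087622-22088111 at 1.66 and 2.01, chr16:22119505-22119952 at 2.69 and 2.45, and chr16:22139916-22140340 at 1.93 and 1.90. The bins chr16:22065029-22065459 and chr16:22077592-22078092, at 1.78 and 1.82, were in the 3-week table, and chr16:22079092-22079592, at 1.91, was in the age table. Among these, the bin at chr16:22119505-22119952 stood out, at percentiles 93.3 and 90.2.

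Igf2bp2 also served as the reference for likeness, since it has rows in all 6 tables and the highest single level. That level comes from the male 8-week table, and in the male 3-week table the highest bins of Zbtb20 (3.07) and Hmga2 (2.89) were above that of Igf2bp2 (2.76). Among 17983 other genes with rows in every table, Ccnq-ps2, Shank2 and Setmar had the most similar highest bins over the 6 tables, measured relative to each table's median. The highest Igf2bp2 bin is the one on Ndufa11b in all 6 tables, so the likeness is to that bin. The Euclidean distances of these genes were 0.118, 0.119 and 0.120 log2 units. The median over all genes was 1.87, and the smallest distances lie below it by selection. This likeness rests on 6 pooled values for each gene, from tables that share libraries.

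Igf2bp1 (chr11:95957163-96005944, minus strand) was the shortest of the 3 family members and the most densely covered, with 9 female and 11 male peaks in its body, or 18.4 and 22.5 for each 100 kb. By raw level over separately normalized tables, its highest bin lay at the start, chr11:96004638-96005138, at 3.38 in the female 8-week table (percentile 95.2). The other bins retained from this peak were chr11:96005638-96006138 at 2.70 and 2.48 (female age and 3-week), chr11:96005898-96006398 at 2.68 (male age), chr11:96004398-96004898 at 1.83 (male 3-week) and chr11:96007398-96007898 at 2.91 (male 8-week). The range from percentile 21.0 to 95.2 within 1 promoter went with 5 different retained bins in the 6 tables. In some tables a bin inside the gene was above the one at the start. In an intron these were chr11:95994001-95994501 at 3.22 (female age, percentile 93.9) and chr11:95993793-95994293 at 3.28 (male 8-week, percentile 90.5). In the male 3-week table it was chr11:95981171-95981671 at 2.30.

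The remaining promoter bins of Igf2bp1 lay inside the gene. In females they were chr11:95968325-95968825 at 2.52 (8-week), chr11:95969825-95970325 at 2.23 (3-week), chr11:95981882-95982382 at 2.27 (3-week) and chr11:95983382-95983882 at 2.42 (age). In males they were chr11:95968456-95968956 at 2.51 (8-week), chr11:95969956-95970456 at 2.14 and 1.90 (age and 3-week) and chr11:95981171-95981671 at 2.23 and 2.30 (age and 3-week). The male bin at chr11:95981171-95981671 reached percentile 80.4, and the others stayed at or below 54.8. At its 3′ end 2 peaks were listed under Mir3063 in every table.

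Igf2bp3 (chr6:49085218-49215469, minus strand) was more sparsely covered, with 7 female and 6 male peaks in its body, or 5.37 and 4.61 for each 100 kb. Its highest bin was outside the gene, at chr6:49217991-49218446, about 2.5 kb upstream, at 3.15 in the male age table and 4.01 in the male 8-week table (percentiles 98.8 and 99.1). The male 3-week table retained another bin of this peak, chr6:49217491-49217991, at 2.10. In females the peak gave chr6:49217530-49218030 at 3.51 at 8 weeks and chr6:49218030-49218476 at 3.11 in the age table and 2.28 at 3 weeks. The 3-week values were the lowest of this peak in each sex, at percentiles 29.2 in females and 59.0 in males.

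At the start of Igf2bp3 the retained bins were chr6:49213763-49214263 at 2.85 and 2.35 (female age and 3-week) and chr6:49213263-49213763 at 2.52 (female 8-week). In males they were chr6:49213350-49213850 at 2.32 and 3.02 (age and 8-week) and chr6:49212850-49213350 at 2.12 (3-week). All 4 RefSeq transcript starts lay in a peak in females and 3 in males.

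Near the 3′ end of Igf2bp3, bins annotated as promoter, near starts of internal transcripts, were chr6:49094949-49095386, from 2.60 to 2.97 over the 3 female tables, and chr6:49095107-49095370, from 2.30 to 2.65 over the male ones. The bin chr6:49107991-49108491 ran from 2.13 to 2.39 in males. In females chr6:49107875-49108375 was at 2.39 (8-week) and chr6:49110758-49111258 at 2.44 and 2.37 (age and 3-week). The female bin at chr6:49094949-49095386 was the highest of these, at percentiles 75.0 to 83.4.

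Hmga2 (chr10:120361268-120476469, minus strand) had 15 female and 17 male peaks assigned to it, of which 1 in each sex covered its start and the rest were upstream, out to 135 kb. Of the 13 female and 12 male peaks in its body, all but the one at the start were listed under 9230105E05Rik and Mir763. The symbol alone therefore leaves out 7 to 11 body rows in each table. Those rows ran in level from 1.70 to 3.30.

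Its promoter peak was 4104 bp long in females and 3857 bp in males. The retained bins were chr10:120476836-120477336 at 2.91 and 2.95 (female age and 8-week) and chr10:120475836-120476336 at 2.68 (female 3-week), all between percentiles 78.6 and 82.4. In males they were chr10:120475986-120476486 at 2.38 (age), chr10:120474986-120475486 at 1.96 (3-week) and chr10:120476986-120477486 at 2.64 (8-week). The male age value stood at percentile 78.4 and the other male values at 39.3 and 37.0, and each male table retained a different bin. Of the bins of both sexes, only the male age bin overlapped the promoter window shown above.

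The highest bin of Hmga2 was intergenic, 43.3 kb upstream, at chr10:120519474-120519974 in males with 3.26, 2.89 and 3.86 in the age, 3-week and 8-week tables. In females, chr10:120519530-120520027 had 3.33, 3.01 and 3.54. The 6 values stood between percentiles 96.3 and 99.2. The 8-week level was the highest in both sexes, but by percentile the male 8-week value, at 98.6, was the lowest of the male values. Soft-masked repeats made up 66.3% of the male bin and 68.5% of the female bin. The median was 24.7% over intergenic member bins and 30.2% over all intergenic bins. Over member bins of all kinds it was 13.5% in males and 10.3% in females. A masked share this high also occurred at low level: chr10:120524715-120525215 was 95.4% masked and at percentile 3.5 in the male 3-week table. Peaks of Hmga2 were among the most constant, with 13 of 15 in females and 12 of 17 in males listed in all 3 tables of their sex.

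Between the sexes, 56 of 69 female member peaks (81.2%) overlapped a male peak and 57 of 83 male member peaks (68.7%) a female peak. Over all peaks these shares were 77.1% and 72.8%. Peaks of members were 947 bp long at the median in females and 762 bp in males, against 781 and 745 bp for all peaks, and none was longer than 5425 bp. The longest peaks of the whole tables reached 81961 bp in females and 50258 bp in males.

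Levels of the ages were set side by side through the 3-week and 8-week tables, which share no library within a sex, because the age tables pool both ages in 1 level and their comparison columns were not used. Of the member rows at 3 weeks, 29 of 60 (48.3%) in females and 35 of 81 (43.2%) in males had the same coordinates at 8 weeks, against 54.7% and 43.4% of all rows. In these bins the 8-week level was higher by a median of 0.25 log2 in females and 0.59 in males, but over all shared bins the median difference was 0.23 and 0.63. After subtraction of that shift the member median was 0.021 in females and -0.047 in males, and 15 of 29 and 14 of 35 bins lay above 0. These medians cover the shared bins alone, and Igf2bp1 had none in females.

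Single bins departed from it. The Igf2bp2 bin on Ndufa11b was 0.53 above the shift in females and 0.87 in males, at percentiles 96.2 and 99.4 of all shared bins. The Zbtb20 intron bin at chr16:43142911-43143296 was 0.52 above it in males (percentile 95.1), and its female counterpart was 0.17 above. The shared Zbtb20 bin on Gm15711 was at -0.15 in males (percentile 29.8) and 0.19 above the shift in females. The upstream Lin28b bin was 0.39 above the shift in females and 0.16 in males, and the upstream Hmga2 bin with the highest level 0.30 and 0.34. Below it were both shared Zhx2 bins in females, at -0.39 and -0.30, while the 7 male Zhx2 bins ran from -0.26 to 0.13. All 3 shared Igf2bp3 bins in males were below it, from -0.44 to -0.15, and the 4 female ones ran from -0.34 to 0.05. Igf2bp2 and Hmga2 also had bins below it, down to -0.39 and -0.42 in females and -0.31 and -0.25 in males. The SD over all shared bins was 0.28 in females and 0.30 in males, and without values for each library none of these departures can be set against replicate error.

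**Figure D5:**
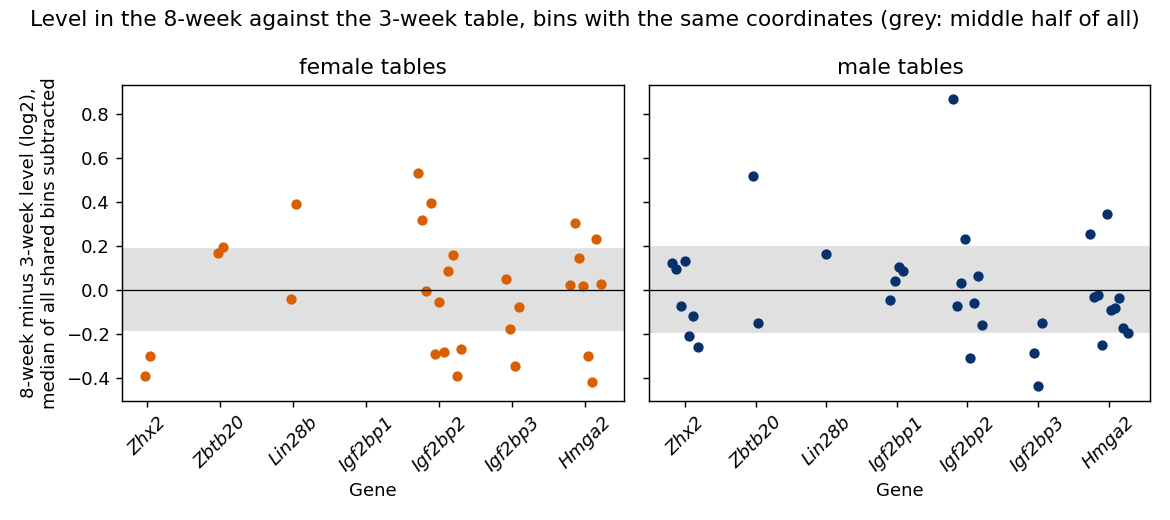
Difference in average log2 CPM between the 8-week and the 3-week table for member bins with the same coordinates in both, with the median over all shared bins subtracted, by gene and sex. The grey band holds the range from the first to the last quartile boundary of all shared bins. The highest point in each panel is the Igf2bp2 bin on Ndufa11b, at 0.53 in females and 0.87 in males.

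Other gene lists were counted in the same way. Of 16 further genes of the albumin locus and the fetal liver, 14 had a row, all but Afm and Spink1, and of the 15 that are protein-coding 11 had a promoter peak in each sex, among them Igf2, Dlk1, Gpc3, Mycn and the Lin28b paralogue Lin28a. H19, a noncoding RNA, was left out of the promoter count. Over all protein-coding genes, 17.5% had no row, and 49.4% in females and 50.8% in males had a promoter peak. Of 11 genes of the Zhx family and known regulators of Afp, all had a row, and 6 in females and 8 in males had a promoter peak, including Zhx1 and Zhx3 in both. The median percentile of the rows was 49.2 for the first list and 44.8 for the second, against 48.1 for the members.

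The samples are whole liver, so marker genes of its cell types were counted too. Hepatocyte markers had a promoter peak in 2 of 10 genes in females and 3 of 10 in males, and 8 of 10 had a row, without Apoa2 and Fgb as nearest gene. These counts stand beside shares of 49.4% and 50.8% over all protein-coding genes, and with 5 to 10 genes a list they are descriptions. Stellate cell and cholangiocyte markers each had a promoter peak in 4 of 5 genes in both sexes. Of 5 genes each, Kupffer cell markers had 0 and 1, sinusoidal endothelial markers 2 and 1, and blood cell markers 1 and 1 in females and males. Among hepatocyte markers without a promoter peak in either sex were Ttr, Cps1, Fga, Fgb, Serpina1a and Tat.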

How the data were processed

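H3K9me3 ChIP-seq of whole mouse liver was deposited as 6 tables. Per the methods of the study, the authors aligned reads to mm10 (GRCm38, GENCODE annotation) with BWA, called broad peaks with MACS2, removed blacklisted regions, merged peaks seen in replicates within each sex, cut them into 500 bp bins, counted reads with featureCounts, normalized with edgeR and annotated with ChIPseeker. The deposited average log2 CPM is the authors' pooled value over the 8 libraries of a table, so depth and spread of single libraries are unknown here. The 3 remaining measurement columns of each table hold the authors' own fold change, p-value and false discovery rate, and were not used. How 1 bin of each peak was retained is not given in the sources used here.

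Rows were taken by symbol, and position, level, percentile and overlap (at least 1 bp) were computed with Python 3.11.15, numpy 2.4.6 and pandas 2.3.3, with overlap counting tested on simulated data. Gene positions and promoters came from RefSeq (GRCm38.p6), processed pseudogenes from GENCODE M21 (an older release than the authors'), and their parent transcripts from BLAST. All 9 members were named, with coordinates for the highest bin of each and for every promoter bin. The genes most like Igf2bp2 are the 3 with the smallest Euclidean distance. The members, lists and comparisons were chosen with earlier results of these data known. No test was run. Alternatives were the gene body in place of the symbol, a level minimum, merged bins, other summaries, overlap rules and wider bins.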

Additional observations from a re-analysis of the deposited data

How the results depend on the processing

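Counting bins inside the gene body by position, or merging bins less than 1 kb apart, left the number of member rows within 1.5 times the reported one. Keeping bins above their table median left 78 female and 105 male rows. The median level relative to the table stayed near 0 without intergenic bins and as a median over genes. For the highest bin of each gene it was 0.83 in females and 1.04 in males. A highest bin picked from several tends to lie above the table median by selection, and the same value over all genes was not computed. An overlap of at least 1 bp, in place of the same coordinates, raised the share of 3-week member rows found at 8 weeks in males from 43.2% to 54.3% and in females from 48.3% to 56.7%, while over all rows it rose from 43.4% to 50.4% and from 54.7% to 61.7%. Subtracting the shift over all shared bins took the 8-week minus 3-week median to 0.021 in females and -0.047 in males. With that shift left in, bins above the median of both tables gave 0.69 in males and 0.31 in females, beside a shift of 0.63 and 0.23 over all shared bins. With bins extended by 500 bp on each side the median GC was 47.8% in females and 48.2% in males, and the soft-masked share 22.5% and 18.4%, against 52.5%, 53.1%, 10.3% and 13.5%.

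No paired analysis was possible because the tables hold pooled levels with no value for a single library, and leaving out a replicate was not run for the same reason. These levels cannot tell which libraries carry a peak, and levels between tables depend on each table's own normalization and retained bins. An absent row shows only that no peak was listed in the tables used here.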
